A study of Mus musculus with 9 samples.

Results

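The genes described here are the metalloproteases and their inhibitors, chosen by symbol alone. They comprise the matrix metalloproteases (Mmp), the membrane proteases of the ADAM class (Adam), the secreted proteases with thrombospondin repeats (Adamts), their protease-like relatives without a catalytic domain (Adamtsl) and the tissue inhibitors of metalloproteases (Timp). A row of the deposited table was a member where its symbol was one of these class names followed by a number. This gave 69 of 84809 rows, of which 24946 carried a symbol, with 21 Mmp, 20 Adam, 19 Adamts, 5 Adamtsl and 4 Timp genes. RNA had been sequenced from dermal cells of newborn mice that all carried a Cre recombinase driven by the Krt14 promoter, which is active in epidermal keratinocytes, and the Rosa26-mTmG reporter, a pair of membrane fluorescent proteins that records Cre activity. The cells were primary, taken from the animals without culture, and were sorted on CD49f, the integrin α6 subunit, into 3 gates with 3 libraries each, named CD49f-high, CD49f-low and CD49f-neg mesenchymal cells in the labels. No untreated or genetic control group stood beside the gates, and CD49f-neg served as the reference. Separate animals or litters for the replicates are not stated in the labels, so p-values measure the spread between these libraries only.

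Metalloproteases cut proteins with a zinc ion in the active site and are made as inactive precursors. Matrix metalloproteases degrade collagens and other matrix proteins, ADAM proteases release the outer parts of membrane proteins such as growth factors and Notch receptors, and ADAMTS proteases trim procollagens and cut large proteoglycans such as versican. TIMPs bind the active site and block it, each with its own range of enzymes. In skin this system is known for collagen turnover, hair follicle growth and wound repair.

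The deposited unit was FPKM, the number of sequenced fragments scaled by transcript length and by the mapped total of the library, so levels can be compared between genes within a library. Between libraries the scaling to a total leaves a shift: median-of-ratios size factors of the FPKM ran from 0.941 to 1.03 in CD49f-high, from 1.14 to 1.16 in CD49f-low and from 0.844 to 0.949 in CD49f-neg. Low values of single-exon genes were spaced so that 1 FPKM over 1 kilobase stood for 47.3 to 54.5 of the smallest counted units in a library, and the files do not say whether such a unit is 1 read or 1 fragment. Itga6, which encodes CD49f, had 15.9, 19.6 and 24.1 FPKM in CD49f-high, 6.05, 4.38 and 6.09 FPKM in CD49f-low and 0.710, 0.433 and 0.283 FPKM in CD49f-neg. The gates held different mixtures of cells. Summed FPKM of 7 pericyte and smooth muscle markers ranged from 759 to 1397 in CD49f-high, from 81.5 to 158 in CD49f-low and from 31.5 to 39.4 in CD49f-neg. Summed FPKM of 5 melanocyte markers ranged from 7.14 to 15.4 in CD49f-high, from 395 to 488 in CD49f-low and from 2.17 to 3.44 in CD49f-neg. The sums of 6 Schwann cell markers ranged from 32.0 to 186, from 38.5 to 50.1 and from 0.565 to 0.754 FPKM in CD49f-high, CD49f-low and CD49f-neg. The 6 fibroblast markers summed to 3920 to 5920, 5403 to 6615 and 13516 to 16513 FPKM in the same order of gates, and 5 of 6 fell in CD49f-low and 6 of 6 in CD49f-high against CD49f-neg. Keratinocyte markers (6 genes) summed to 18.2 to 38.8 FPKM in CD49f-high, 4.99 to 6.63 FPKM in CD49f-low and 0.865 to 0.995 FPKM in CD49f-neg. All 4 symbols that were tested rose in CD49f-high against both other gates. Krt14 and Krt15 share the same row, however, which entered the sum and the tests under both symbols. That row and the row of Krt5 also cover other genes. Of 4 endothelial markers tested, Cdh5 and Cldn5 rose in CD49f-high against CD49f-neg, and Cdh5 also against CD49f-low. Kdr rose in CD49f-low against CD49f-neg and fell in CD49f-high against CD49f-low, and Tek was not called in any comparison. Of 4 skeletal muscle markers tested, Myod1, Myf5 and Cdh15 rose in CD49f-low against CD49f-neg and fell in CD49f-high against CD49f-low. The other, Des, rose in CD49f-high against both other gates and is also among the 7 pericyte and smooth muscle markers. Myod1 and Myf5 reached 1 FPKM in CD49f-low only, and Cdh5 and the keratinocyte marker Col17a1 in CD49f-high only. These markers passed the filter through that gate, which favours a rise there. Among the 6 immune markers 1 passed the filter, and the pan-leukocyte marker Ptprc was at or near 0. The part of these cell types in the results below was not tested, and in such mixtures fewer cells of a type cannot be told apart from less RNA per cell.

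Of the 69 genes, 45 reached 1 FPKM in at least 3 libraries and were tested, namely 10 of 21 Mmp, 11 of 20 Adam, 18 of 19 Adamts, 3 of 5 Adamtsl and 3 of 4 Timp genes. Fold changes are given on the log2(FPKM + 1) scale, which understates changes of low genes. Counts below are over these 45 and not over all 69, and a gene high in 1 gate only could pass through that gate. For 12 of the 45 an exon overlaps one of another annotated gene, so their values may include reads of that gene. Of the 45, 30 were called in at least 1 of the 3 comparisons at an adjusted p under 0.05 and 15 in none. Between CD49f-high and CD49f-neg 15 were higher and 9 lower, where the same test called 13.9% of all 20523 rows higher and 8.27% lower. In all, 22.1% of rows were called. With the replicate number as a block 20 were higher and 15 lower, beside 19.7% and 11.6% of all rows. Between CD49f-low and CD49f-neg 9 were higher and 8 lower, against 12.8% and 2.62% of all rows (15.4% together), shares that depend on the scaling. The split was 7 higher and 11 lower after median-of-ratios scaling, against 5.03% and 6.0% of all rows, and 6 higher and 9 lower after quantile normalization, against 5.07% and 4.89%. Without CD49f-low replicate 3 or CD49f-neg replicate 2 only 5 were called lower, beside 1.65% and 1.72% of all rows. Without CD49f-neg replicate 3 only 6 were called higher, beside 6.11% of all rows. Between CD49f-high and CD49f-low 12 were higher and 7 lower, against 5.93% and 10.5% of all rows (16.4% together). The split of all rows turned round after median-of-ratios scaling, to 8.21% higher and 6.03% lower beside 14 and 6 genes, and after quantile normalization, to 7.68% and 6.97% beside 13 and 7 genes. Without CD49f-low replicate 3 the lower calls numbered 4, beside 6.37% of all rows. Without CD49f-high replicate 3 the higher calls numbered 8, beside 4.66% of all rows. The median log2 fold change of the 45 genes was 0.09, -0.04 and 0.02 in the 3 comparisons, beside 0.07, 0.21 and -0.15 for all rows tested. Median-of-ratios scaling moved the medians of the 45 genes to 0.02, -0.32 and 0.20 and those of all rows to -0.02, -0.03 and 0.01. Quantile normalization gave -0.01, -0.26 and 0.11 for the 45 genes beside -0.04, -0.01 and -0.03 for all rows. Small differences that involve CD49f-low are read against that shift.

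**Figure D1:**
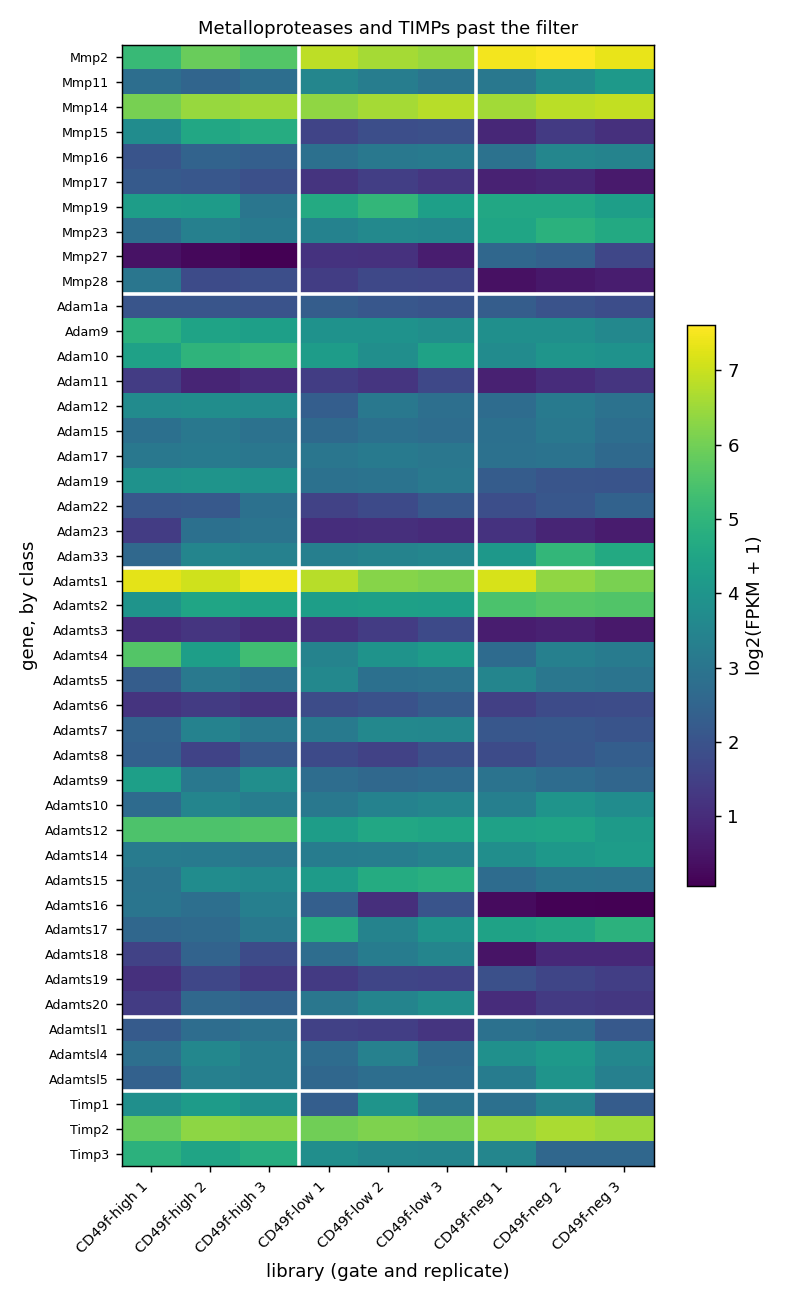
Levels of the 45 metalloprotease and TIMP genes past the filter in each of the 9 libraries, as log2(FPKM + 1) in colour, with genes in rows by class and libraries in columns by gate. Mmp2, Mmp14, Timp2 and Adamts1 are bright in every library, while Adamts16 and Mmp15 are dark in the 3 CD49f-neg libraries.

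**Figure D2:**
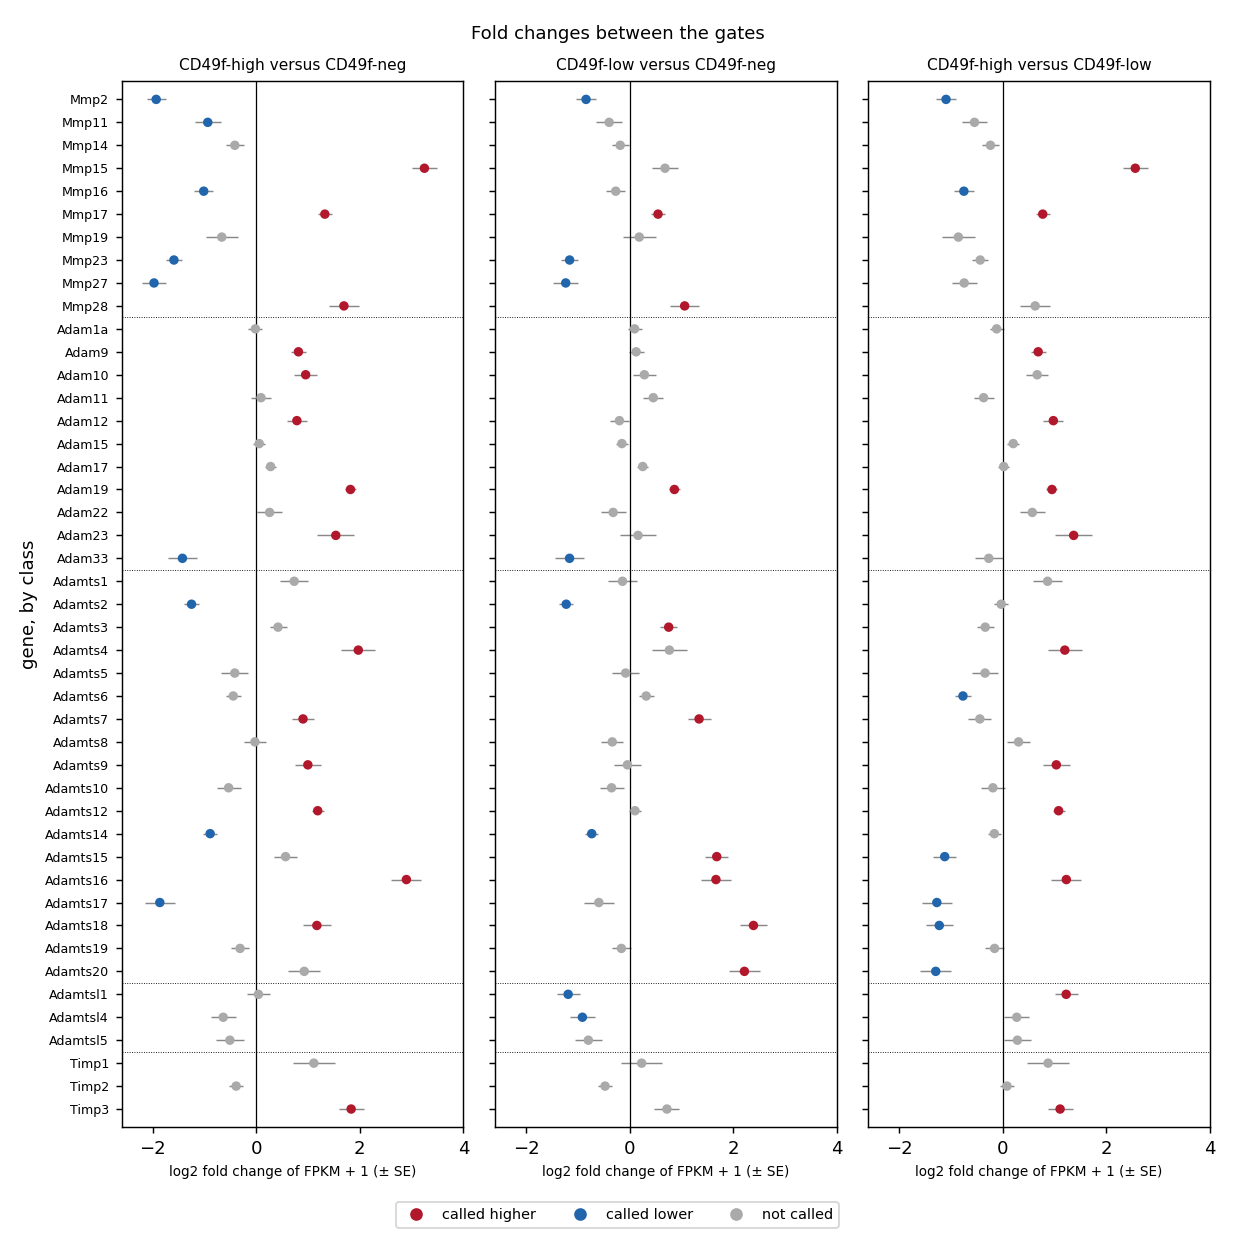
Log2 fold change of FPKM + 1 of the 45 genes in each comparison, as points with the standard error, in red where called higher, in blue where called lower and in grey where not called. The point farthest to the right is Mmp15 between CD49f-high and CD49f-neg, at 3.25.

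The matrix metalloproteases split by gate. Mmp2, gelatinase A, which degrades basement membrane collagen and denatured collagen, stood at 34.7, 57.8 and 47.3 FPKM in CD49f-high, 114, 96.6 and 86.9 FPKM in CD49f-low and 177, 195 and 162 FPKM in CD49f-neg. The gates did not overlap, with CD49f-neg on top and CD49f-high at the bottom. Mmp2 lies at chromosome 8, 92827328 to 92853417 (GRCm38), and was the only gene of the 45 that fell at both steps, by log2 changes of -0.84 (SE 0.19, adjusted p = 0.0166) between CD49f-low and CD49f-neg and -1.09 (SE 0.19, adjusted p = 0.00348) between CD49f-high and CD49f-low. Over the whole range the log2 change was -1.93 (SE 0.19, adjusted p = 8.47e-05). The call of Mmp2 between CD49f-low and CD49f-neg was lost leaving out CD49f-low replicate 2 (at adjusted p = 0.0592) or 3 (0.0698) and leaving out CD49f-neg replicate 2 (0.0581). Mmp14, the membrane-bound protease that activates the Mmp2 precursor, was at 66.2, 86.7 and 91.2 FPKM in CD49f-high, 81.3, 96.2 and 110.2 FPKM in CD49f-low and 93.1, 113 and 119.8 FPKM in CD49f-neg. It was among the most abundant members in every gate, and all 3 CD49f-high libraries lay below all 3 of CD49f-neg. Its log2 difference between these gates, -0.42 (SE 0.17, adjusted p = 0.114), did not pass the test. The call of Mmp14 between CD49f-high and CD49f-neg was made with a term for the replicate number (at adjusted p = 0.00956). In single libraries the ratio of Mmp14 to Mmp2 FPKM ran from 1.50 to 1.93 in CD49f-high, from 0.711 to 1.27 in CD49f-low and from 0.527 to 0.739 in CD49f-neg. Mmp2 and Mmp14 together made 63.5% to 70.5% of the summed Mmp FPKM of a CD49f-high library, 73.6% to 79.2% of a CD49f-low library and 78.8% to 80.1% of a CD49f-neg library.

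Of the other 8 Mmp genes tested, 4 fell in CD49f-high against CD49f-neg, beside 8.27% of all rows called lower. Mmp23, a membrane-anchored family member that lacks the usual propeptide switch, was at 5.901, 9.16 and 7.83 FPKM in CD49f-high, 9.58, 11.3 and 10.7 FPKM in CD49f-low and 21.9, 28.6 and 24.1 FPKM in CD49f-neg. Every CD49f-neg library was above every other library. Mmp23 changed by -1.59 (SE 0.16, adjusted p = 0.000101) between CD49f-high and CD49f-neg and by -1.16 (SE 0.16, adjusted p = 0.001295) between CD49f-low and CD49f-neg. The call of Mmp23 between CD49f-high and CD49f-low was made with a term for the replicate number (at adjusted p = 0.0136). Mmp27, a relative of the stromelysins, was at 0.353, 0.159 and 0.0664 FPKM in CD49f-high, 1.24, 1.21 and 0.585 FPKM in CD49f-low and 4.96, 4.33 and 2.21 FPKM in CD49f-neg. It fell, with a log2 change of -1.98 (adjusted p = 0.000325) in CD49f-high and of -1.23 (adjusted p = 0.00876) in CD49f-low against CD49f-neg. The call of Mmp27 between CD49f-high and CD49f-low was made under a pseudocount of 0.1 (at adjusted p = 0.0168), with a term for the replicate number (0.00756) and leaving out CD49f-neg replicate 3 (0.0218). Mmp11, stromelysin 3, a protease of stromal cells that is activated inside the cell by furin, was at 5.99, 4.82 and 5.86 FPKM in CD49f-high, 10.5, 8.67 and 6.79 FPKM in CD49f-low and 7.45, 12.05 and 16.8 FPKM in CD49f-neg. The CD49f-neg libraries differed among themselves by over 2-fold, and the lowest of them was still above all 3 CD49f-high libraries. Its change between CD49f-high and CD49f-neg was -0.94 (adjusted p = 0.0242). The call of Mmp11 between CD49f-high and CD49f-neg was lost in the unfiltered table (at adjusted p = 0.0717), leaving out CD49f-high replicate 2 (0.0769) or 3 (0.0514) and leaving out CD49f-neg replicate 2 (0.0743) or 3 (0.0769). Exons of Mmp11 and of Chchd10 on the other strand overlap by 155 bases, and the labels do not state a stranded library. Mmp16, a transmembrane protease related to Mmp14, was at 3.05, 4.52 and 4.06 FPKM in CD49f-high, 6.22, 7.48 and 7.78 FPKM in CD49f-low and 6.44, 10.5 and 9.91 FPKM in CD49f-neg. All 3 CD49f-high libraries were below all 6 others. Mmp16 fell, with a log2 change of -1.02 (adjusted p = 0.00367) in CD49f-high against CD49f-neg and of -0.75 (adjusted p = 0.02301) against CD49f-low. The call of Mmp16 between CD49f-high and CD49f-low was lost in the unfiltered table (at adjusted p = 0.0636), under median-of-ratios scaling (0.106), leaving out CD49f-high replicate 1 (0.0634) or 3 (0.0536) and leaving out CD49f-low replicate 2 (0.0728) or 3 (0.0868).

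In the opposite direction, 3 of the 10 Mmp genes tested rose in CD49f-high against CD49f-neg, beside 13.9% of all rows called higher. Mmp15, a transmembrane protease of the same subfamily as Mmp14 and Mmp16 (chromosome 8, 95352268 to 95374293), was at 12.4, 23.1 and 25.8 FPKM in CD49f-high, 2.05, 2.66 and 2.78 FPKM in CD49f-low and 0.864, 1.53 and 1.15 FPKM in CD49f-neg. The lowest CD49f-high library was far above every library of the other gates. Mmp15 rose by 3.25 (SE 0.24, adjusted p = 1.89e-05) log2 units in CD49f-high against CD49f-neg and by 2.56 (SE 0.24, adjusted p = 0.000143) against CD49f-low. The call of Mmp15 between CD49f-low and CD49f-neg was made under a pseudocount of 0.1 (at adjusted p = 0.0415), with a term for the replicate number (0.01898) and leaving out CD49f-high replicate 1 (0.01504). Mmp17, which is held in the membrane by a lipid anchor, was at 3.63, 3.30 and 2.78 FPKM in CD49f-high, 1.303, 1.75 and 1.38 FPKM in CD49f-low and 0.722, 0.828 and 0.526 FPKM in CD49f-neg. It rose at both steps, by 0.55 (adjusted p = 0.0238) between CD49f-low and CD49f-neg and by 0.77 (adjusted p = 0.00365) between CD49f-high and CD49f-low. The call of Mmp17 between CD49f-low and CD49f-neg was lost under median-of-ratios scaling (at adjusted p = 0.0878), in quantile-normalized values (0.204), leaving out CD49f-low replicate 2 (0.0913) or 3 (0.0635) and leaving out CD49f-neg replicate 3 (0.0928). Mmp28, epilysin, a secreted family member known from skin, was at 7.09, 2.43 and 2.69 FPKM in CD49f-high, 1.68, 2.27 and 2.17 FPKM in CD49f-low and 0.323, 0.454 and 0.577 FPKM in CD49f-neg. CD49f-high replicate 1 stood well above the other 2 CD49f-high libraries. Mmp28 rose by 1.69 (adjusted p = 0.00226) in CD49f-high and by 1.07 (adjusted p = 0.0353) in CD49f-low against CD49f-neg. The call of Mmp28 between CD49f-low and CD49f-neg was lost in the unfiltered table (at adjusted p = 0.0956), under median-of-ratios scaling (0.0755), in quantile-normalized values (0.125), leaving out CD49f-low replicate 1 (0.0608) or 2 (0.106) or 3 (0.104) and leaving out CD49f-neg replicate 1 (0.0772) or 2 (0.0825) or 3 (0.0815). Among the transmembrane proteases Mmp14, Mmp15 and Mmp16 the order of levels thus differed by gate, with Mmp15 above Mmp16 in CD49f-high and Mmp16 above Mmp15 in CD49f-low and CD49f-neg. Mmp19, a broadly expressed matrix protease, averaged 14.2 ± 6.17 FPKM in CD49f-high, 25.3 ± 6.59 FPKM in CD49f-low and 21.7 ± 2.48 FPKM in CD49f-neg (SD, n = 3) and was called in none of the 3 comparisons. The call of Mmp19 between CD49f-high and CD49f-neg was made with a term for the replicate number (at adjusted p = 0.0353). The call of Mmp19 between CD49f-high and CD49f-low was made with a term for the replicate number (at adjusted p = 0.0171).

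**Figure D3:**
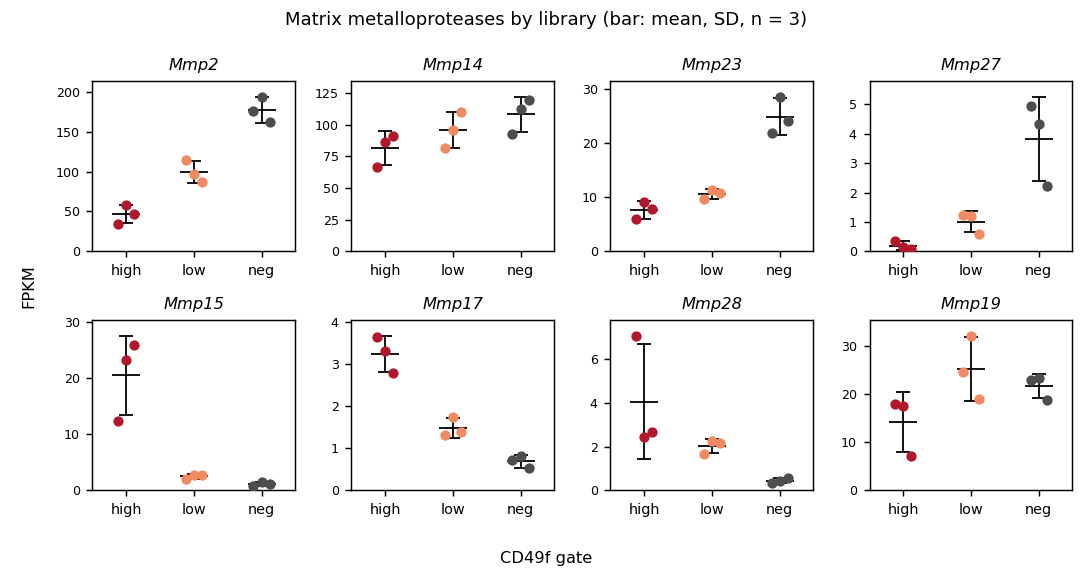
FPKM of 8 Mmp genes in each library, by gate, with points for single libraries and bars for the mean and SD (n = 3 per gate). Mmp2, Mmp23 and Mmp27 stand highest in CD49f-neg, and Mmp15, Mmp17 and Mmp28 highest in CD49f-high.

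The 11 Mmp genes below the filter include the classical inducible enzymes. Of the 8 Mmp genes of the cluster on chromosome 9 (7272514 to 7674968), which encode collagenases, stromelysins, macrophage elastase (Mmp12) and the enamel protease Mmp20, 7 did not pass and 1, Mmp27, did. Apart from Mmp3 and Mmp27, no gene of the cluster exceeded 0.642 FPKM in any library. Mmp3, stromelysin 1, was at 0.411, 4.01 and 1.33 FPKM in CD49f-high, 0.0669, 0.832 and 0.188 FPKM in CD49f-low and 0.298, 0.521 and 0.178 FPKM in CD49f-neg. It thus reached 1 FPKM in CD49f-high replicates 2 and 3 only. Gelatinase B, Mmp9, a protease of inflammatory cells and osteoclasts, was at 0.155, 0.319 and 0.221 FPKM in CD49f-high, 0.0822, 0.169 and 0.0898 FPKM in CD49f-low and 0.0533, 0.0216 and 0.0129 FPKM in CD49f-neg. These are low levels, and all 3 CD49f-high libraries lay above or close to the highest CD49f-low library.

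Promoter windows were available for 44 of the 69 genes, 27 of them past the filter. Each is the RefSeq (GRCm38.p6) sequence from 250 bases before to 50 bases after an annotated start, with 1 window per gene. Not every window lies at the gene start listed here. That of Adamts20 (94404301 to 94404600), which held GC boxes, lies inside the gene, and that of Adam19 (46054252 to 46054551) lies before its listed start. All windows were searched on both strands for the AP-1 motif TGANTCA, the GC box GGGCGG and the TATA box TATAAA. Over 27025 genes these motifs occurred in 7.93%, 35.9% and 14.2% of windows. No window of the 27 genes past the filter held the AP-1 motif, 19 held a GC box and 1, that of Adamts1, held the TATA box. In the chromosome 9 cluster 5 of 8 windows held the AP-1 motif, 6 of 8 the TATA box and none the GC box. A link between motifs and expression was not tested, and the shares over 27025 genes are not limited to expressed genes. The following windows were picked as examples, with the motifs in capitals, 5′ to 3′ on the strand of the gene. Mmp3 and Mmp13 (collagenase 3) stayed below the filter and their neighbour Mmp27 passed it, though Mmp3 was above Mmp27 in every CD49f-high library. Mmp15 and Timp3 are highest in CD49f-high, and Adamts1 is abundant in every gate.
Mmp3: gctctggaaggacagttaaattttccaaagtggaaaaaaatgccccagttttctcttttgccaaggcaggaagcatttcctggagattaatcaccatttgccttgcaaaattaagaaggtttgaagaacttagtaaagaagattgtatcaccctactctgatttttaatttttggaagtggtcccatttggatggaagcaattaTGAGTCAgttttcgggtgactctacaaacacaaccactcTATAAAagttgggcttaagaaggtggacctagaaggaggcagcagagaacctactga
Mmp13: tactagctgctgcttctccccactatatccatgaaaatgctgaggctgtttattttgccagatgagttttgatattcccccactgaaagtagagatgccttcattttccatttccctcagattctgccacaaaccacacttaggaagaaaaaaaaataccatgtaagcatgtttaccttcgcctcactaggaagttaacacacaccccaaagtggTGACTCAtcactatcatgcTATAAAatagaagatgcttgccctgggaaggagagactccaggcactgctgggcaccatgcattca
Mmp27: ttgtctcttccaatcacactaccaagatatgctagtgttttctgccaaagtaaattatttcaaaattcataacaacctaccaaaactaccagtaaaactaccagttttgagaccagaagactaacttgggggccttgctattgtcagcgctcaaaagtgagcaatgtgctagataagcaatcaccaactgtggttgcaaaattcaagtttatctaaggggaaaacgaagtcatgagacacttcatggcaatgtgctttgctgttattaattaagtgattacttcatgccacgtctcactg
Mmp15: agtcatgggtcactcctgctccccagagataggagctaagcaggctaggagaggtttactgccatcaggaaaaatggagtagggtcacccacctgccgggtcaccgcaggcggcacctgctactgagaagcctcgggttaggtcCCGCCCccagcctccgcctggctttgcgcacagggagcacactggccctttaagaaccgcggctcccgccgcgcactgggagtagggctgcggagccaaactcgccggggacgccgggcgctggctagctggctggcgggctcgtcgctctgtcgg
Timp3: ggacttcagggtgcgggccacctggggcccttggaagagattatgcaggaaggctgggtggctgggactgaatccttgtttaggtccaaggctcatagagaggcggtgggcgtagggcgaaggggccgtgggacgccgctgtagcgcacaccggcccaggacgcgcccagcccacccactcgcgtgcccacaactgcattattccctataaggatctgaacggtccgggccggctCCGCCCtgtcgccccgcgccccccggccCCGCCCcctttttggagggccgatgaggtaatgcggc
Adamts1: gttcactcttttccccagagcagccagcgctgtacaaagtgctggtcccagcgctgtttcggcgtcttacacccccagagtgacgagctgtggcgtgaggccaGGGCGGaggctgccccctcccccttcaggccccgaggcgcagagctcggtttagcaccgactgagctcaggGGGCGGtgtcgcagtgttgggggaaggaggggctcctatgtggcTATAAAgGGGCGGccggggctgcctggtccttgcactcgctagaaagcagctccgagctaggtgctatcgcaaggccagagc
The Mmp3 window (chr9:7445572-7445871, plus strand) and the Mmp13 window (chr9:7272264-7272563, plus strand) each hold 1 AP-1 motif and 1 TATA box. The Mmp27 window (chr9:7571146-7571445, plus strand) holds none of the 3 motifs. Those of Mmp15 (chr8:95352046-95352345, plus strand) and Timp3 (chr10:86300162-86300461, plus strand) hold 1 and 2 GC boxes, and that of Adamts1 (chr16:85803064-85803363, minus strand) holds 3 GC boxes and 1 TATA box. A match describes letters only, and the window does not cover distant elements.

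Among the 11 ADAM genes tested, 5 rose, 1 fell and 5 were not called in CD49f-high against CD49f-neg. Of all rows, 13.9% were called higher and 8.27% lower in this comparison. Adam19, or meltrin β, known for releasing neuregulin (chromosome 11, 46055992 to 46147343), was at 13.98, 14.7 and 13.9 FPKM in CD49f-high, 6.43, 6.61 and 7.59 FPKM in CD49f-low and 3.75, 3.13 and 3.08 FPKM in CD49f-neg. The 3 gates were far apart and replicates close together. It rose at both steps, by 0.87 (SE 0.11, adjusted p = 0.000679) between CD49f-low and CD49f-neg and by 0.95 (SE 0.11, adjusted p = 0.000343) between CD49f-high and CD49f-low, and by 1.82 (SE 0.11, adjusted p = 5.84e-06) over the whole range. Adam12, or meltrin α, a protease of mesenchymal and muscle cells, was at 12.04, 12.7 and 11.95 FPKM in CD49f-high, 4.01, 7.52 and 6.08 FPKM in CD49f-low and 5.59, 8.12 and 6.55 FPKM in CD49f-neg. CD49f-high libraries were nearly equal and above all others. Adam12 rose by 0.98 (adjusted p = 0.00722) against CD49f-low and by 0.78 (adjusted p = 0.0161) against CD49f-neg. The call of Adam12 between CD49f-high and CD49f-neg was lost leaving out CD49f-neg replicate 3 (at adjusted p = 0.0533). The row also covers A130023I24Rik, so the values may include that gene. Adam9, or meltrin γ, a widely expressed sheddase, was at 28.3, 20.9 and 19.1 FPKM in CD49f-high, 13.9, 13.9 and 12.97 FPKM in CD49f-low and 13.01, 13.2 and 10.99 FPKM in CD49f-neg. It rose by 0.81 (adjusted p = 0.00319) in CD49f-high against CD49f-neg and by 0.69 (adjusted p = 0.0110) against CD49f-low.

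Adam10, the sheddase that cleaves Notch receptors after ligand binding, was at 19.7, 30.7 and 33.4 FPKM in CD49f-high, 17.8, 12.9 and 20.5 FPKM in CD49f-low and 11.9, 14.9 and 14.1 FPKM in CD49f-neg. The CD49f-high libraries were above those of CD49f-neg and overlapped with CD49f-low. Its rise between CD49f-high and CD49f-neg was 0.95 (adjusted p = 0.0112), and its difference from CD49f-low was 0.67 (adjusted p = 0.06696). The call of Adam10 between CD49f-high and CD49f-low was made under median-of-ratios scaling (at adjusted p = 0.0342), with a term for the replicate number (0.0389) and leaving out CD49f-high replicate 1 (0.0129). Adam17, the sheddase of tumour necrosis factor and of ligands of the epidermal growth factor receptor, averaged 7.59 ± 0.338 FPKM in CD49f-high, 7.47 ± 0.367 FPKM in CD49f-low and 6.11 ± 0.716 FPKM in CD49f-neg (SD, n = 3) and was called in no comparison. The call of Adam17 between CD49f-high and CD49f-neg was made with a term for the replicate number (at adjusted p = 0.0477). Adam15, a disintegrin protease, averaged 6.77 ± 0.632 FPKM in CD49f-high, 5.74 ± 0.455 FPKM in CD49f-low and 6.48 ± 0.820 FPKM in CD49f-neg (SD, n = 3), again with no call. The call of Adam15 between CD49f-low and CD49f-neg was made under median-of-ratios scaling (at adjusted p = 0.0415). Adam33, a protease of fibroblasts and smooth muscle known from asthma genetics, was at 5.14, 10.2 and 9.504 FPKM in CD49f-high, 9.01, 9.96 and 10.6 FPKM in CD49f-low and 15.9, 32.1 and 24.2 FPKM in CD49f-neg. CD49f-neg replicates ranged over 2-fold, and the lowest was above every other library. Adam33 fell, with a log2 change of -1.43 (adjusted p = 0.00449) in CD49f-high and of -1.16 (adjusted p = 0.0214) in CD49f-low against CD49f-neg. The call of Adam33 between CD49f-low and CD49f-neg was lost in the unfiltered table (at adjusted p = 0.0646), leaving out CD49f-low replicate 1 (0.0632) or 2 (0.0635) or 3 (0.05597) and leaving out CD49f-neg replicate 2 (0.0659) or 3 (0.0721).

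Adam11, Adam22 and Adam23 have no active protease site and are known from neurons and glia. Adam23 was at 1.65, 6.29 and 6.79 FPKM in CD49f-high, 1.06, 1.11 and 1.003 FPKM in CD49f-low and 1.23, 0.792 and 0.547 FPKM in CD49f-neg. CD49f-high replicate 1 was close to the other gates, and replicates 2 and 3 stood about 4-fold above it. In the same libraries the 6 Schwann cell markers summed to 32.0, 157 and 186 FPKM, an association that was not tested. Adam23 rose by 1.54 (adjusted p = 0.0125) against CD49f-neg and by 1.37 (adjusted p = 0.0278) against CD49f-low. The call of Adam23 between CD49f-high and CD49f-neg was lost leaving out CD49f-neg replicate 3 (at adjusted p = 0.0508). The call of Adam23 between CD49f-high and CD49f-low was lost in the unfiltered table (at adjusted p = 0.0741), leaving out CD49f-high replicate 2 (0.0904) or 3 (0.0962) and leaving out CD49f-low replicate 1 (0.0735) or 2 (0.0699) or 3 (0.0837). Adam22 averaged 4.41 ± 1.66 FPKM in CD49f-high, 2.59 ± 0.789 FPKM in CD49f-low and 3.45 ± 0.867 FPKM in CD49f-neg (SD, n = 3) and Adam11 averaged 1.16 ± 0.435 FPKM in CD49f-high, 1.78 ± 0.461 FPKM in CD49f-low and 1.02 ± 0.329 FPKM in CD49f-neg (SD, n = 3), with no call for either. The call of Adam22 between CD49f-high and CD49f-low was made with a term for the replicate number (at adjusted p = 0.00595). Of the 9 Adam genes below the filter none exceeded 1.18 FPKM, and they include Adam2, Adam5 and Adam32, which are known from sperm. The Adam1a row also covers Mapkapk5 and Gm42878, and which gene its 2.62 to 3.92 FPKM measured is uncertain.

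ADAMTS proteases are taken next, by known substrate. Adamts2, Adamts3 and Adamts14 remove the amino propeptide of procollagens. Adamts2 (chromosome 11, 50602084 to 50807573) was at 14.7, 21.5 and 20.4 FPKM in CD49f-high, 18.8, 19.3 and 18.9 FPKM in CD49f-low and 43.1, 47.9 and 46.2 FPKM in CD49f-neg. The lowest CD49f-neg library was at about 2 times the highest of the others. Adamts2 fell, with a log2 change of -1.25 (SE 0.14, adjusted p = 0.000182) in CD49f-high against CD49f-neg, while CD49f-high and CD49f-low differed by -0.03 (adjusted p = 0.902). Adamts14 was at 8.14, 8.04 and 7.403 FPKM in CD49f-high, 8.39, 8.61 and 9.79 FPKM in CD49f-low and 12.8, 15.97 and 17.9 FPKM in CD49f-neg. It fell in both gates as well, with a log2 change of -0.89 (adjusted p = 0.000962) in CD49f-high and of -0.73 (adjusted p = 0.00539) in CD49f-low. Adamts3, the family member that also processes the lymphatic growth factor Vegfc, went the other way at a lower level, with 1.09, 1.33 and 0.984 FPKM in CD49f-high, 1.197, 1.63 and 2.37 FPKM in CD49f-low and 0.591, 0.706 and 0.488 FPKM in CD49f-neg. It rose by 0.76 (adjusted p = 0.0149) between CD49f-low and CD49f-neg. The call of Adamts3 between CD49f-low and CD49f-neg was lost in quantile-normalized values (at adjusted p = 0.106) and leaving out CD49f-neg replicate 3 (0.0601). Over the same libraries Col1a1 had 1675, 2738 and 2665 FPKM in CD49f-high, 2728, 2397 and 2331 FPKM in CD49f-low and 7463, 6362 and 5689.6 FPKM in CD49f-neg.

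Adamts1, Adamts4, Adamts5, Adamts8, Adamts9, Adamts15 and Adamts20 are known to cut versican, aggrecan or both. Adamts1 was the most abundant of the class in every library, at 158, 132 and 172 FPKM in CD49f-high, 110.3, 74.5 and 70.7 FPKM in CD49f-low and 142, 80.2 and 67.8 FPKM in CD49f-neg. It made 43.9% to 47.5% of the summed Adamts FPKM in CD49f-high, 28.2% to 41.6% in CD49f-low and 29.3% to 49.3% in CD49f-neg. Replicate 1 of CD49f-low and of CD49f-neg stood above replicates 2 and 3. The log2 difference of 0.87 (adjusted p = 0.0592) between CD49f-high and CD49f-low and that of 0.73 (adjusted p = 0.0871) between CD49f-high and CD49f-neg did not pass the test. The call of Adamts1 between CD49f-high and CD49f-low was made under median-of-ratios scaling (at adjusted p = 0.0193), in quantile-normalized values (0.0251), with a term for the replicate number (0.0178), leaving out CD49f-low replicate 1 (0.0448) and leaving out CD49f-neg replicate 1 (0.0157) or 3 (0.0484). The call of Adamts1 between CD49f-high and CD49f-neg was made with a term for the replicate number (at adjusted p = 0.0275) and leaving out CD49f-neg replicate 1 (0.00886). Adamts5, whose gene lies 55.1 kilobases from Adamts1 on chromosome 16, averaged 5.999 ± 1.88 FPKM in CD49f-high, 7.88 ± 2.69 FPKM in CD49f-low and 8.22 ± 1.88 FPKM in CD49f-neg (SD, n = 3) and had no call.

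Adamts4, an aggrecanase induced by inflammation in cartilage, was at 47.3, 18.8 and 38.1 FPKM in CD49f-high, 9.79, 14.4 and 17.5 FPKM in CD49f-low and 5.53, 9.24 and 8.27 FPKM in CD49f-neg. CD49f-high replicate 2 was the lowest of its gate and close to the highest CD49f-low library, and the 7 pericyte and smooth muscle markers summed to 1397, 759 and 976 FPKM in the same 3 CD49f-high libraries, an association that was not tested. Adamts4 rose by 1.97 (adjusted p = 0.00224) in CD49f-high against CD49f-neg and by 1.20 (adjusted p = 0.03599) against CD49f-low. The call of Adamts4 between CD49f-high and CD49f-low was lost in the unfiltered table (at adjusted p = 0.0972), leaving out CD49f-high replicate 1 (0.0935) or 3 (0.113), leaving out CD49f-low replicate 1 (0.119) or 2 (0.0792) and leaving out CD49f-neg replicate 2 (0.05104) or 3 (0.0519). Adamts9, a conserved versicanase that also acts at primary cilia, was at 18.98, 7.58 and 12.8 FPKM in CD49f-high, 5.78, 5.15 and 5.57 FPKM in CD49f-low and 6.63, 5.64 and 4.88 FPKM in CD49f-neg. Here too replicate 2 was the lowest of CD49f-high. Adamts9 rose by 1.00 (adjusted p = 0.0207) against CD49f-neg and by 1.04 (adjusted p = 0.0225) against CD49f-low. The call of Adamts9 between CD49f-high and CD49f-neg was lost in the unfiltered table (at adjusted p = 0.0627), leaving out CD49f-high replicate 3 (0.05695) and leaving out CD49f-neg replicate 2 (0.0604) or 3 (0.0776). The call of Adamts9 between CD49f-high and CD49f-low was lost in the unfiltered table (at adjusted p = 0.0638), leaving out CD49f-high replicate 3 (0.0674) and leaving out CD49f-low replicate 1 (0.0565) or 2 (0.0704) or 3 (0.0663). The gene shares 1381 exon bases with A730049H05Rik on the other strand.

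CD49f-low was the top gate for Adamts15, Adamts18 and Adamts20, the 3 genes called higher in CD49f-low than in CD49f-neg and lower in CD49f-high than in CD49f-low. Adamts20, a versicanase whose loss gives the white belt of belted mice through failure of melanoblasts (chromosome 15, 94270163 to 94465418), was at 1.63, 5.07 and 4.51 FPKM in CD49f-high, 7.39, 10.2 and 12.8 FPKM in CD49f-low and 1.03, 1.57 and 1.45 FPKM in CD49f-neg. It rose by 2.22 (SE 0.30, adjusted p = 0.00133) between CD49f-low and CD49f-neg, and CD49f-high differed from CD49f-low by -1.29 (adjusted p = 0.0178). The call of Adamts20 between CD49f-high and CD49f-low was lost in the unfiltered table (at adjusted p = 0.0517) and leaving out CD49f-low replicate 2 (0.0546) or 3 (0.0731). The call of Adamts20 between CD49f-high and CD49f-neg was made under a pseudocount of 0.1 (at adjusted p = 0.0454), with a term for the replicate number (0.00738) and leaving out CD49f-high replicate 1 (0.00278). Adamts15 was at 6.88, 12.2 and 11.6 FPKM in CD49f-high, 17.3, 25.1 and 27.2 FPKM in CD49f-low and 5.59, 6.91 and 6.78 FPKM in CD49f-neg. It rose by 1.69 (adjusted p = 0.00105) in CD49f-low against CD49f-neg and changed by -1.12 (adjusted p = 0.00792) between CD49f-high and CD49f-low. The call of Adamts15 between CD49f-high and CD49f-neg was made with a term for the replicate number (at adjusted p = 0.00804) and leaving out CD49f-high replicate 1 (0.0173). Adamts8, which lies 20.1 kilobases from Adamts15 on chromosome 9, averaged 3.24 ± 1.12 FPKM in CD49f-high, 2.36 ± 0.415 FPKM in CD49f-low and 3.26 ± 0.764 FPKM in CD49f-neg (SD, n = 3) and was not called. Adamts18, known from eye and lung development, was at 1.94, 4.56 and 2.44 FPKM in CD49f-high, 5.82, 8.37 and 10.2 FPKM in CD49f-low and 0.369, 0.903 and 0.894 FPKM in CD49f-neg. It rose by 2.39 (adjusted p = 0.000369) in CD49f-low and by 1.17 (adjusted p = 0.0111) in CD49f-high against CD49f-neg, and changed by -1.23 (adjusted p = 0.0119) between CD49f-high and CD49f-low. The call of Adamts18 between CD49f-high and CD49f-low was lost leaving out CD49f-low replicate 3 (at adjusted p = 0.0524). CD49f-low was also the gate with the highest sums of melanocyte markers, given above, and of 4 dermal papilla markers, with 5.62 to 9.61 FPKM in CD49f-high, 32.1 to 47.9 FPKM in CD49f-low and 0.968 to 1.097 FPKM in CD49f-neg. Their part in these results was not tested.

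Adamts16 and Adamts18 are close relatives with different profiles. Adamts16, known from kidney and blood pressure studies in rats, was at 7.04, 6.13 and 8.94 FPKM in CD49f-high, 4.14, 1.102 and 3.09 FPKM in CD49f-low and 0.219, 0.07696 and 0.0456 FPKM in CD49f-neg. It was near 0 in all CD49f-neg libraries and rose at both steps, by 1.67 (adjusted p = 0.00464) between CD49f-low and CD49f-neg and by 1.23 (adjusted p = 0.0174) between CD49f-high and CD49f-low. Over the whole range it rose by 2.90 (SE 0.29, adjusted p = 0.000101). The call of Adamts16 between CD49f-high and CD49f-low was lost under a pseudocount of 0.1 (at adjusted p = 0.0524) and leaving out CD49f-high replicate 3 (0.0657). Adamts7 and Adamts12 form another pair of relatives and cut cartilage oligomeric matrix protein. Adamts12 (chromosome 15, 11064790 to 11346867) was at 44.6, 44.6 and 45.9 FPKM in CD49f-high, 18.3, 23.1 and 21.2 FPKM in CD49f-low and 19.97, 20.8 and 17.1 FPKM in CD49f-neg. The 3 CD49f-high libraries were almost equal and stood at about 2-fold the level of all others, with changes of 1.19 (SE 0.12, adjusted p = 9.14e-05) against CD49f-neg and 1.08 (SE 0.12, adjusted p = 0.000265) against CD49f-low. Adamts7, known from vascular smooth muscle, was at 4.56, 9.56 and 7.52 FPKM in CD49f-high, 7.78, 11.04 and 10.9 FPKM in CD49f-low and 3.32, 3.39 and 3.04 FPKM in CD49f-neg. It rose by 1.34 (adjusted p = 0.00357) in CD49f-low and by 0.90 (adjusted p = 0.0162) in CD49f-high against CD49f-neg. The call of Adamts7 between CD49f-high and CD49f-neg was lost leaving out CD49f-high replicate 3 (at adjusted p = 0.0518) and leaving out CD49f-neg replicate 3 (0.0574). Exons of Adamts7 and of Tbc1d2b on the other strand overlap by 122 bases.

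Adamts6, Adamts10, Adamts17 and Adamts19 make up the rest of the tested class, and Adamts10 and Adamts17 are known for their link to fibrillin microfibrils. Adamts17 was at 4.95, 5.33 and 7.41 FPKM in CD49f-high, 25.5, 9.78 and 14.6 FPKM in CD49f-low and 20.2, 22.98 and 29.1 FPKM in CD49f-neg. CD49f-low libraries were spread, with replicate 1 at the level of CD49f-neg, and CD49f-high libraries were the lowest. Adamts17 fell, with a log2 change of -1.86 (adjusted p = 0.00152) in CD49f-high against CD49f-neg and of -1.27 (adjusted p = 0.0162) against CD49f-low. The call of Adamts17 between CD49f-high and CD49f-low was lost leaving out CD49f-high replicate 2 (at adjusted p = 0.0505). The call of Adamts17 between CD49f-low and CD49f-neg was made leaving out CD49f-low replicate 1 (at adjusted p = 0.0346). Adamts10 averaged 8.14 ± 2.46 FPKM in CD49f-high, 9.23 ± 1.53 FPKM in CD49f-low and 12.1 ± 2.88 FPKM in CD49f-neg (SD, n = 3) and was not called. The call of Adamts10 between CD49f-high and CD49f-neg was made with a term for the replicate number (at adjusted p = 0.00902). Adamts6, a heart development gene in mice, was at 1.29, 1.59 and 1.28 FPKM in CD49f-high, 2.54, 2.904 and 3.83 FPKM in CD49f-low and 1.84, 2.43 and 2.51 FPKM in CD49f-neg. It fell, with a log2 change of -0.77 (adjusted p = 0.00663) between CD49f-high and CD49f-low. The call of Adamts6 between CD49f-high and CD49f-neg was made under a pseudocount of 0.1 (at adjusted p = 0.0455), under median-of-ratios scaling (0.0351), in quantile-normalized values (0.0334), with a term for the replicate number (0.0251), leaving out CD49f-low replicate 3 (0.04901) and leaving out CD49f-neg replicate 1 (0.0349). Adamts19 averaged 1.61 ± 0.528 FPKM in CD49f-high, 1.88 ± 0.303 FPKM in CD49f-low and 2.23 ± 0.511 FPKM in CD49f-neg (SD, n = 3) and was not called. Adamts13, the protease of von Willebrand factor, was the only Adamts gene below the filter, at 0.632, 0.432 and 0.407 FPKM in CD49f-high, 0.0468, 0.106 and 0.0303 FPKM in CD49f-low and 0.0182, 0.03496 and 0.00744 FPKM in CD49f-neg.

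**Figure D4:**
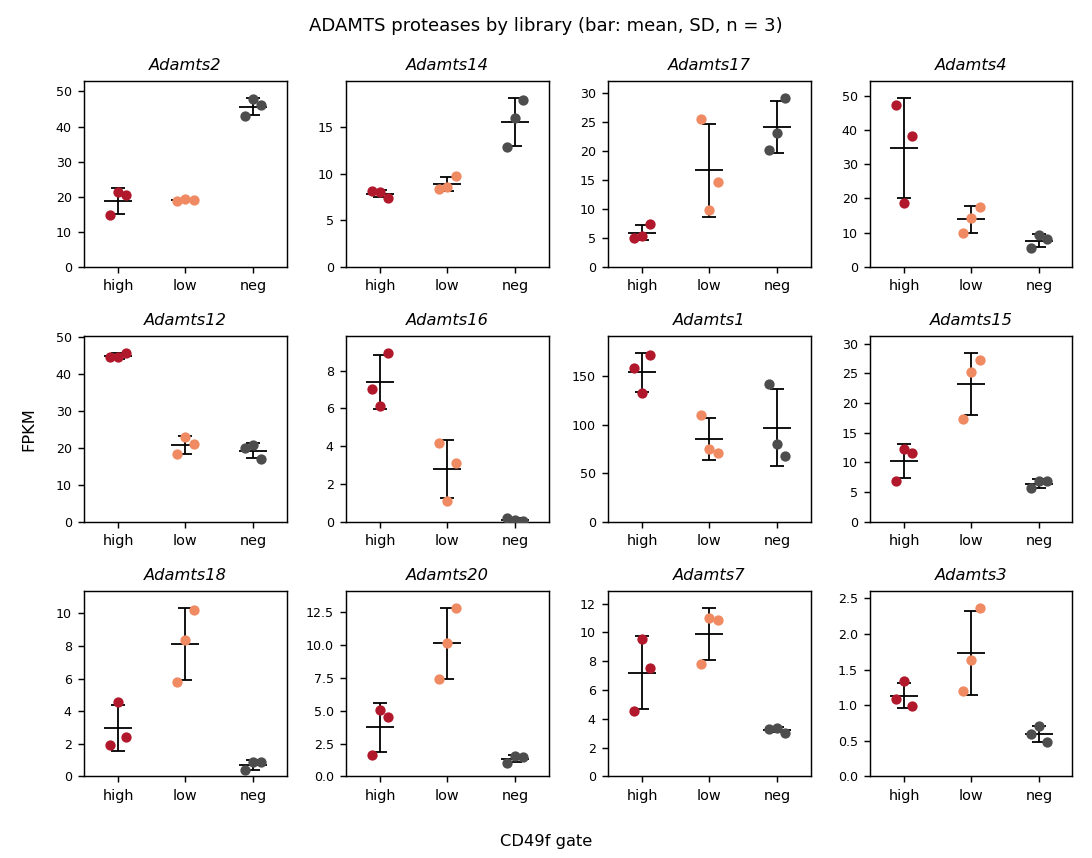
FPKM of 12 Adamts genes in each library, by gate, with points for single libraries and bars for the mean and SD (n = 3 per gate). Adamts2 and Adamts14 stand highest in CD49f-neg, Adamts4, Adamts12 and Adamts16 in CD49f-high, and Adamts15, Adamts18 and Adamts20 in CD49f-low.

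ADAMTS-like proteins bind matrix without cutting it, and Adamtsl4 is known to bind fibrillin microfibrils. Adamtsl1 was at 3.72, 5.83 and 6.46 FPKM in CD49f-high, 1.88, 1.78 and 1.34 FPKM in CD49f-low and 6.33, 5.68 and 3.51 FPKM in CD49f-neg. CD49f-low was below both other gates, which overlapped. The gene fell, with a log2 change of -1.19 (adjusted p = 0.00697) in CD49f-low against CD49f-neg and rose by 1.23 (adjusted p = 0.004703) between CD49f-high and CD49f-low, the only tested member with this course. Adamtsl4 was at 6.05, 10.9 and 8.37 FPKM in CD49f-high, 5.65, 9.42 and 5.44 FPKM in CD49f-low and 13.5, 16.4 and 10.7 FPKM in CD49f-neg. It fell, with a log2 change of -0.91 (adjusted p = 0.0361) in CD49f-low against CD49f-neg. The call of Adamtsl4 between CD49f-low and CD49f-neg was lost in the unfiltered table (at adjusted p = 0.103), leaving out CD49f-low replicate 1 (0.102) or 3 (0.121) and leaving out CD49f-neg replicate 1 (0.0705) or 2 (0.106). The call of Adamtsl4 between CD49f-high and CD49f-neg was made under median-of-ratios scaling (at adjusted p = 0.04601) and with a term for the replicate number (0.0113). Adamtsl5 averaged 7.34 ± 2.66 FPKM in CD49f-high, 5.602 ± 0.567 FPKM in CD49f-low and 10.7 ± 3.39 FPKM in CD49f-neg (SD, n = 3) and was not called. The call of Adamtsl5 between CD49f-low and CD49f-neg was made under median-of-ratios scaling (at adjusted p = 0.0292), in quantile-normalized values (0.0388), with a term for the replicate number (0.01504) and leaving out CD49f-high replicate 1 (0.0221). Adamtsl3, below the filter, was at 0.474, 1.61 and 2.03 FPKM in CD49f-high, 0.171, 0.424 and 0.407 FPKM in CD49f-low and 0.1103, 0.106 and 0.108 FPKM in CD49f-neg, with CD49f-high replicate 1 again below replicates 2 and 3. Adamtsl2 stayed under 0.425 FPKM in every library.

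The inhibitors were unequal in level and in profile. Timp2, which also serves as the bridge between Mmp14 and the Mmp2 precursor, was the most abundant in every library, at 56.98, 80.1 and 74.4 FPKM in CD49f-high, 61.95, 70.2 and 65.6 FPKM in CD49f-low and 86.6, 100.1 and 88.97 FPKM in CD49f-neg. CD49f-neg was above both other gates, but the log2 differences of -0.39 (adjusted p = 0.0798) in CD49f-high and -0.47 (adjusted p = 0.0511) in CD49f-low against CD49f-neg did not pass the test. The call of Timp2 between CD49f-high and CD49f-neg was made under median-of-ratios scaling (at adjusted p = 0.0359) and with a term for the replicate number (0.0239). The call of Timp2 between CD49f-low and CD49f-neg was made under a pseudocount of 0.1 (at adjusted p = 0.0481), under median-of-ratios scaling (0.00808), with a term for the replicate number (0.0151) and leaving out CD49f-high replicate 1 (0.01504) or 2 (0.0491). Timp3, which binds to the matrix and inhibits ADAM and ADAMTS proteases as well as matrix metalloproteases (chromosome 10, 86300372 to 86349506), was at 29.3, 21.3 and 26.5 FPKM in CD49f-high, 12.96, 10.8 and 10.2 FPKM in CD49f-low and 10.4, 4.99 and 5.004 FPKM in CD49f-neg. The CD49f-high libraries were above all others, and CD49f-neg replicate 1 was within the range of CD49f-low. Timp3 rose by 1.83 (SE 0.24, adjusted p = 0.000558) in CD49f-high against CD49f-neg and by 1.11 (SE 0.24, adjusted p = 0.0125) against CD49f-low. The call of Timp3 between CD49f-high and CD49f-low was lost leaving out CD49f-low replicate 3 (at adjusted p = 0.0516). The call of Timp3 between CD49f-low and CD49f-neg was made with a term for the replicate number (at adjusted p = 0.0168) and leaving out CD49f-neg replicate 1 (0.00396). Exons of Timp3 and Syn3, which lies around it on the other strand, overlap by 1733 bases. Timp1, an inducible inhibitor, was at 13.2, 17.6 and 13.1 FPKM in CD49f-high, 4.02, 14.7 and 6.66 FPKM in CD49f-low and 6.14, 9.81 and 3.79 FPKM in CD49f-neg. CD49f-low libraries ranged over 3-fold, and CD49f-high was above CD49f-neg in every library. Its difference of 1.11 (adjusted p = 0.0788) between these gates missed the threshold. The call of Timp1 between CD49f-high and CD49f-neg was made with a term for the replicate number (at adjusted p = 0.0138) and leaving out CD49f-low replicate 1 (0.0478) or 2 (0.02903). The call of Timp1 between CD49f-high and CD49f-low was made with a term for the replicate number (at adjusted p = 0.0407) and leaving out CD49f-low replicate 2 (0.0332). Timp4, known from heart, did not pass the filter and was at 0.158, 0.129 and 0.134 FPKM in CD49f-high, 0.0817, 0.121 and 0.116 FPKM in CD49f-low and 0.0455, 0.0519 and 0.0264 FPKM in CD49f-neg.

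**Figure D5:**
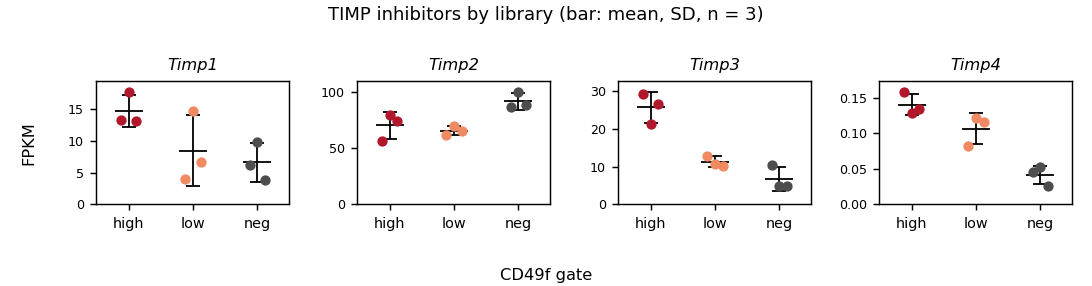
FPKM of the 4 Timp genes in each library, by gate, with points for single libraries and bars for the mean and SD (n = 3 per gate), each panel with its own scale. Timp2 is the most abundant and highest in CD49f-neg, and Timp3 is highest in CD49f-high.

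Sums over the classes moved apart. The summed FPKM of the 21 Mmp genes was 159, 215 and 197 in the CD49f-high libraries, 254, 262 and 249 in the CD49f-low libraries and 337, 389.8 and 357 in the CD49f-neg libraries. That of the 4 Timp genes was 99.6, 119 and 114 in CD49f-high, 79.0, 95.8 and 82.6 in CD49f-low and 103, 115 and 97.8 in CD49f-neg. In single libraries the ratio of Timp to Mmp FPKM was thus 0.554 to 0.627 in CD49f-high, 0.311 to 0.366 in CD49f-low and 0.274 to 0.306 in CD49f-neg. Within the Timp sum, Timp3 held 17.9% to 29.4% in CD49f-high, 11.3% to 16.4% in CD49f-low and 4.34% to 10.1% in CD49f-neg. The 19 Adamts genes summed to 301 to 362 FPKM in CD49f-high, 235 to 265 FPKM in CD49f-low and 232 to 288 FPKM in CD49f-neg, and the 20 Adam genes to 105 to 121, 75.6 to 83.1 and 74.3 to 95.9 FPKM in the same order of gates. These sums are transcript levels per length and carry no test.

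Genes that act with the metalloproteases come from 6 lists chosen for their known roles, and their counts stand beside 13.9% of all rows called higher and 8.27% lower between CD49f-high and CD49f-neg, and 12.8% and 2.62% between CD49f-low and CD49f-neg. Of 8 tested partners that carry ADAM10 or ADAM17 to the cell surface, 4 rose in CD49f-high and 4 in CD49f-low against CD49f-neg, and none fell, with median log2 changes of 0.49 and 0.50 beside 0.07 and 0.21 for all rows. Rhbdf2, an iRhom needed for ADAM17 maturation in immune cells, changed by 1.46 (adjusted p = 2.66e-05) in CD49f-high, and the tetraspanin Tspan15, which directs Adam10, was at 9.16, 7.66 and 9.68 FPKM in CD49f-high, 0.6899, 0.621 and 0.7497 FPKM in CD49f-low and 0.0551, 0.06103 and 0.0508 FPKM in CD49f-neg. Tspan10, a tetraspanin of the same group known from pigment cells, was at 0.0937, 0.295 and 0 FPKM in CD49f-high, 4.51, 5.32 and 6.83 FPKM in CD49f-low and 0, 0 and 0 FPKM in CD49f-neg. These 2 partners thus peaked in different gates. Each reached 1 FPKM in that gate only and passed the filter through it, which favours a rise there. The same holds for Tnf (CD49f-high) and Spock1 (CD49f-low) in the lists that follow. Of 8 tested growth factors and receptors that ADAM proteases release, 7 rose and 1 fell between CD49f-high and CD49f-neg and 4 rose between CD49f-low and CD49f-neg. Among them Jag1, a Notch ligand, changed by 2.76 (adjusted p = 7.95e-06), the heparin-binding growth factor Hbegf by 1.22 (adjusted p = 0.00252) and Notch2 by -0.83 (adjusted p = 0.000462) in CD49f-high against CD49f-neg. Notch3, another of the 7, changed by 5.07 (adjusted p = 5.00e-06) and is also 1 of the 7 pericyte and smooth muscle markers.

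Of 5 tested other inhibitors and clearance factors none rose and 3 fell in CD49f-high, and 1 rose and 1 fell in CD49f-low, against CD49f-neg. Reck, a membrane-anchored inhibitor of matrix metalloproteases, was at 13.01, 16.1 and 18.4 FPKM in CD49f-high, 24.2, 19.5 and 22.3 FPKM in CD49f-low and 44.99, 50.9 and 54.3 FPKM in CD49f-neg. It fell in both gates against CD49f-neg, with a log2 change of -1.61 (adjusted p = 5.31e-05) in CD49f-high and of -1.15 (adjusted p = 0.000729) in CD49f-low. Spock1, a secreted matrix proteoglycan, rose by 1.64 (adjusted p = 0.000442) in CD49f-low against CD49f-neg, and CD49f-high differed from CD49f-neg by 0.20 (adjusted p = 0.513). Of 11 tested activators and plasmin system genes, 3 rose and 2 fell in CD49f-high against CD49f-neg, with the urokinase gene Plau at 1.38 (adjusted p = 0.0157) and Pcsk5, a furin-like convertase, at -1.19 (adjusted p = 0.00289). Of 12 tested matrix substrates, 3 rose and 7 fell in the same comparison. The basement membrane chains Col4a1 and Col4a2 changed by 2.82 (adjusted p = 4.66e-06) and 2.86 (adjusted p = 8.74e-06), and the fibrillar chains Col1a1 and Col3a1 by -1.49 (adjusted p = 0.00264) and -1.50 (adjusted p = 0.00138). The Col3a1 row also covers another gene. Col1a1, Col1a2 and Col3a1, 3 of the 7 that fell, are also among the 6 fibroblast markers, all of which fell in this comparison. Of 3 tested astacin proteases and enhancers of procollagen cleavage, none was called in CD49f-high or CD49f-low against CD49f-neg.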

How the data were processed

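RNA of 9 libraries, 3 per CD49f gate, was prepared with the NEBNext Ultra kit, per the labels' protocols. FPKM values per gene were deposited by the authors, and per the submitters' processing notes FastQC, TopHat2, StringTie and GRCm38 were used; versions and strand settings are not given in the sources used here. FPKM hold no counts, so log2(FPKM + 1) was fitted by gate in limma (version 3.58.1, R 4.3.3), with variances moderated along a trend and 6 residual degrees of freedom, over the 20523 rows with at least 1 FPKM in at least 3 libraries, with Benjamini-Hochberg adjustment over all of them and calls at 0.05. On simulated data the fit recovered 96% to 98% of 2-fold changes, with 3.88% to 6.22% false calls over the 3 comparisons. These changes were planted, as 1 unit of log2(FPKM + 1), only in rows averaging above 2 on that scale. Recovery in lower rows was not simulated. The recovery and false call figures are not taken to hold where same-numbered libraries deviate together. Alternatives were a pseudocount of 0.1, no filter, median-of-ratios scaling, quantile normalization, the replicate number as a block, and each library left out in turn. Same-numbered libraries deviated together (correlations of 0.252 to 0.520 in 9 of 9 pairs), so the numbers may pair the samples. This comes from the values, since the labels name no shared source. The main fit did not use the pairing, and only the alternative with the block did. Calls and missed calls given without a named alternative are thus those of the unpaired fit. Genes given with every library were the 4 Timp genes, called genes averaging at least 5 FPKM in their highest gate, and the 2 most abundant genes of each class; the other called genes, and Mmp3, Mmp9, Adamts13, Adamtsl3 and Adam30 below the filter, are given in the same way and were added after their values were seen. Members and lists were chosen with earlier results of these data known. All 69 gene IDs were found in GENCODE M21, from which overlaps were read. Genes below the filter were left untested by the filter, and depth limits the lowest of them.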

Additional observations from a re-analysis of the deposited data

How the results depend on the processing

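Over 135 fold changes of the 45 tested genes and 14 alternatives, 1712 values kept their direction and their side of the threshold, 75 lost a call, 57 gained one and 46 changed sign. Every value that changed sign was of a comparison that was not called. Under median-of-ratios scaling the sign changed between CD49f-high and CD49f-neg for Adamtsl1 (-0.060) and Adam15 (-0.052), between CD49f-low and CD49f-neg for Timp1 (-0.050), Adamts12 (-0.21), Adam10 (-0.027), Adam9 (-0.18), Adam17 (-0.035), Mmp19 (-0.13) and Adam1a (-0.16), and between CD49f-high and CD49f-low for Adamts2 (0.17), Adamts14 (0.025) and Adam1a (0.043). In quantile-normalized values the sign changed between CD49f-high and CD49f-neg for Adamtsl1 (-0.082), Adam15 (-0.057) and Adam11 (-0.0083), between CD49f-low and CD49f-neg for Adamts12 (-0.046), Adam9 (-0.051), Adam23 (-0.12) and Adam1a (-0.13), and between CD49f-high and CD49f-low for Adamts2 (0.033). Between CD49f-high and CD49f-neg, leaving out 1 library gave log2 changes of -0.17 to 0.24 for Adamtsl1, -0.0085 to 0.14 for Adam15, -0.064 to 0.21 for Adam11, -0.12 to 0.10 for Adam1a and -0.19 to 0.20 for Adamts8. Between CD49f-low and CD49f-neg, leaving out 1 library gave log2 changes of -0.21 to 0.61 for Timp1, -0.13 to 0.056 for Adamts9, -0.37 to 0.016 for Adam12, -0.35 to 0.18 for Adamts1, -0.31 to 0.086 for Adamts5 and -3.2e-04 to 0.22 for Adam1a. Between CD49f-high and CD49f-low, leaving out 1 library gave log2 changes of -0.016 to 0.23 for Timp2, -0.13 to 0.13 for Adamts2, -0.43 to 0.0049 for Adam33, -0.36 to 0.042 for Adamts10 and -0.0089 to 0.053 for Adam17.

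With 1 library left out, the genes called higher numbered 11 to 17 and those called lower 8 to 10 between CD49f-high and CD49f-neg, 6 to 10 and 5 to 10 between CD49f-low and CD49f-neg, and 8 to 13 and 4 to 8 between CD49f-high and CD49f-low. In the same fits the calls among all 20523 rows numbered 3232 to 4653, 1614 to 3764 and 2201 to 3585, in the same order of comparisons. With the replicate block 15 genes were called lower between CD49f-high and CD49f-neg, and the calls it changed are given beside the genes; it changed no other call of the 45 genes. Rows called over the whole table numbered 6408, 5806 and 5309 with the block in the comparisons of CD49f-high with CD49f-neg, CD49f-low with CD49f-neg and CD49f-high with CD49f-low, against 4541, 3160 and 3367 without it. The cause of these changes was not tested. With 3 libraries per gate, small differences and genes near 1 FPKM are the least certain.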

Other observations

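Adam30, below the filter, was at 0.613, 0.153 and 0.1497 FPKM in CD49f-high, 1.18, 0.134 and 0.242 FPKM in CD49f-low and 1.12, 0.184 and 0.187 FPKM in CD49f-neg. In each gate replicate 1 was the highest library. Adamts13, Adamtsl3 and Timp4 were below the filter too, and in these genes each CD49f-high library was above all CD49f-low and CD49f-neg libraries. For Timp4 the gap was small, with 0.129 FPKM in CD49f-high replicate 2 against 0.121 FPKM in CD49f-low replicate 2. These genes were not tested, and the share of all rows that separate in this way was not counted. Of the 24 genes below the filter, 9 were under 0.1 FPKM in every library.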
